A study of Mus musculus with 10 samples.

Results

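The genes described here are the interleukins and their receptors, taken as every gene whose current symbol starts with Il and a number and that at least 1 non-control probe of the array could be matched to through its RefSeq transcript. There were 80 such genes with 105 probes, of 18539 genes and 41174 probes in all. Of the 84 symbols of this form in the RefSeq table, Il1f8, Il4i1b, Il11ra2 and Il12b were matched by no probe and were not analysed here. On each of the 10 dual dye arrays, Cy-5 carried RNA of the left hemibrain of 1 male C57BL/6J mouse, never the same mouse again, and Cy-3 a comparison RNA. Mice of 3 weeks were housed singly and kept for 20 weeks on a fish oil enriched diet (FD) or a standard laboratory diet (SD), to an age of 5 months. The sources disagree about which diet each array stands for and about the RNA in Cy-3: the diet entries name FD in Cy-5 and pooled SD hemibrain in Cy-3 on all 10 arrays, the descriptions name controls, and the methods name a commercial reference RNA with 4 FD and 3 SD arrays. No array was therefore assigned a diet, FD was not compared with SD, and values below name the animal of an array or give the lowest, median and highest of the 10 arrays, in that order.

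Interleukins are secreted proteins through which cells, above all those of the immune system, signal to each other. Most bind a pair of receptor chains at the cell surface. Receptors of the IL-1 and IL-17 families pass the signal on through adaptors such as Myd88 and Traf3ip2 to the transcription factor NF-kB, and most of the others through Jak kinases and Stat transcription factors. In brain, microglia, astrocytes, neurons and oligodendrocytes all take part, and several interleukins, Il33, Il34 and Il18 among them, are known to be made there without infection.

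The ratio of each probe is the log2 of the processed Cy-5 signal over the processed Cy-3 signal, so a value of 1 is a doubling in the hemibrain channel. A gene is represented by its brightest probe. It is called higher in hemibrain where this ratio is above 1 on all 10 arrays and the probe is detected in Cy-5 on all 10, and lower where the ratio is below -1 on all 10 and the probe is detected in Cy-3 on all 10. Detected means here that the scanning software flagged the spots of the probe as well above background. These calls are descriptions of 10 arrays against whatever RNA was in Cy-3, and a ratio cannot tell fewer cells of a type from less RNA per cell. The hemibrain label fitted the Cy-5 channel: all 4 neuronal, all 4 astrocyte and all 4 oligodendrocyte marker genes were called higher, with the median of the neuronal list at 5.38 to 6.35 on the 10 arrays. These values went against the label that puts pooled hemibrain in Cy-3, since the same marker genes were far lower in that channel. The array of C10-434 stood apart with a dim Cy-5 channel, in which 25 of the 80 genes were detected, against 40 to 51 on the other 9 arrays.

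Of the 80 genes, 4 (5.0%) were called higher in hemibrain, against 14.5% of all 17659 genes with a value on every array. The 4 were Il17d, Il34, Il18 and Il33. Another 16 (20.0%) were called lower, against 15.9% of all genes, and 60 were not called. Among the marker lists, 3 of 3 proliferation genes were called lower too, with a list median of -6.93 to -6.24 on the arrays, as were 3 of 4 genes of fibroblasts and meninges, with a list median of -3.85 to -3.38. Their part in the ratios of the interleukin genes was not tested. When low signals were floored and offset before a loess fit, 8 of the 16 kept their call, and Il10, Il10rb, Il11, Il15, Il1b, Il1r1, Il27ra and Il2rg lost it. Over all 17659 genes the count called lower fell from 2801 to 1841 under the same setting. The median over the 80 genes of their median log2 ratio was -0.17, with 35 of them (43.8%) above 0, where that over all genes was 0.05, with 51.8% above 0. All 4 genes called higher encode ligands. Of the 33 ligand genes of the IL-1, gamma chain, gp130 and IL-12, IL-10 and IL-17 families, 3 were called higher and 6 lower. Il34 lies outside these families. Of their 39 receptor, accessory and binding protein genes, 10 were called lower and 0 higher, against 15.9% and 14.5% of all genes. Without C10-434, Il1rapl2 of this group was called higher. Il10rb, Il1r1, Il27ra and Il2rg, which lost their call with floored signals, belong to the 10.

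**Figure D1:**
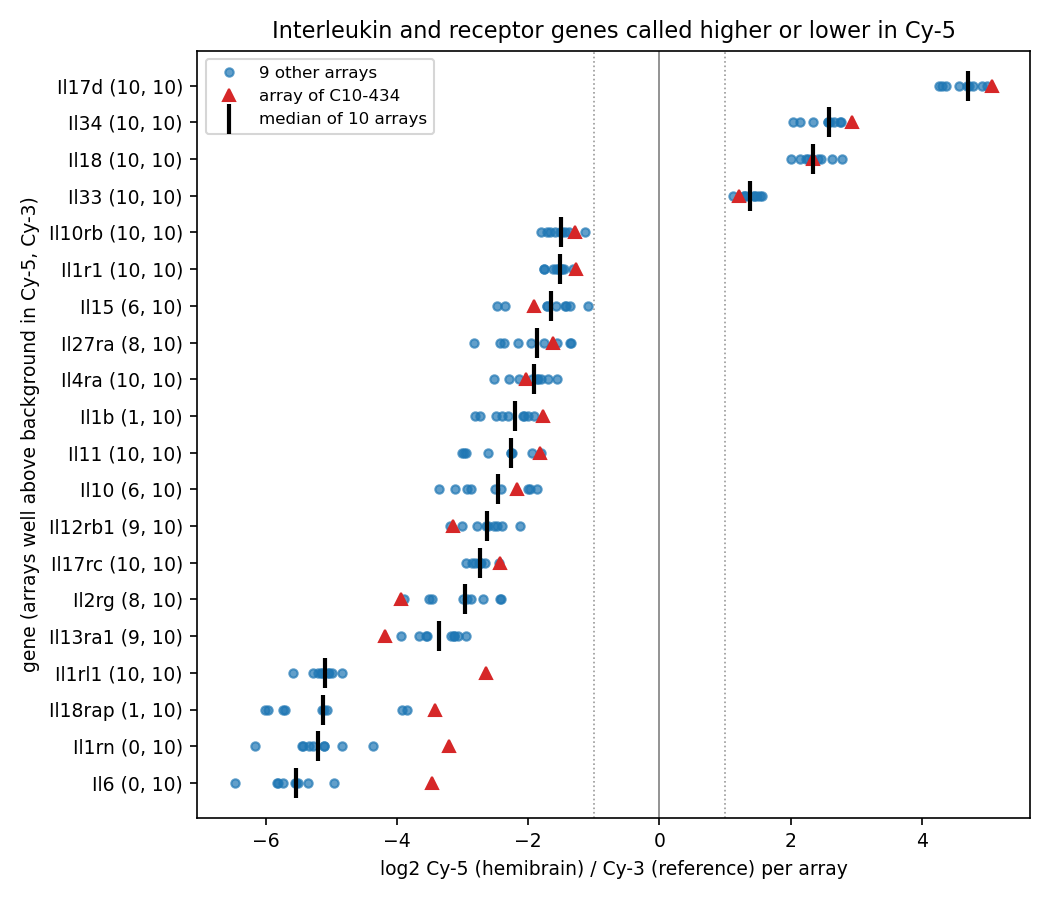
The log2 ratio of the hemibrain channel (Cy-5) over the reference channel (Cy-3) on each of the 10 arrays (horizontal axis) for the 20 genes called higher or lower, with the number of arrays that detected it in Cy-5 and in Cy-3 in parentheses. Circles are single arrays, triangles the array of C10-434, bars the median over the 10 arrays and dotted lines the ratio limits of -1 and 1. Il17d, Il34, Il18 and Il33 lie to the right, and Il1rl1, Il18rap, Il1rn and Il6, drawn at the bottom, each have the C10-434 array as their highest value.

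The upstream sequence of these genes is shown for those called higher that the RefSeq promoter table holds, and for Il6, a gene called lower. The table (GRCm38.p6) gives 250 bases before and 50 bases after each transcription start, and held 78 promoters of 63 of the 80 genes. Il34 was not among them. Capitals mark matches, on either strand, to an NF-kB-like motif spelled GGG, any 2 bases, then TTTCC, and to the letters TATAAA of a TATA box.
Il17d, chr14:57524579-57524878, + strand: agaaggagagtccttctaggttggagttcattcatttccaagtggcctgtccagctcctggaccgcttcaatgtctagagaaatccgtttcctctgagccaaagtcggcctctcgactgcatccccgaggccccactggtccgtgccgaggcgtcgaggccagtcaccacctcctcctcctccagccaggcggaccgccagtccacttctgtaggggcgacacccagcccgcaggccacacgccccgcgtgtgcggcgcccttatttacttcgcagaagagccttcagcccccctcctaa
Il18, chr9:50554450-50554749, + strand: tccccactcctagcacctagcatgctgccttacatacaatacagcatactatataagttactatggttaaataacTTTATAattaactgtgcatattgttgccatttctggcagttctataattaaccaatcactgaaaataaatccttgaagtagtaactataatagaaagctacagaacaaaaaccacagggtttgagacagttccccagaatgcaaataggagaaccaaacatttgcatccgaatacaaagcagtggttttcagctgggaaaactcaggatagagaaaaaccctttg
Il33 (upstream start), chr19:29924863-29925162, + strand: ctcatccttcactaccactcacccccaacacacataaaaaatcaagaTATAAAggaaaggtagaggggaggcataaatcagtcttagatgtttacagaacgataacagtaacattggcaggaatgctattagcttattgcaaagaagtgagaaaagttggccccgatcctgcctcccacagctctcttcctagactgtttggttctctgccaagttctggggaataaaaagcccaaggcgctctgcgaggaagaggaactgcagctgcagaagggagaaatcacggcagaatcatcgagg
Il33 (downstream start), chr19:29945540-29945839, + strand: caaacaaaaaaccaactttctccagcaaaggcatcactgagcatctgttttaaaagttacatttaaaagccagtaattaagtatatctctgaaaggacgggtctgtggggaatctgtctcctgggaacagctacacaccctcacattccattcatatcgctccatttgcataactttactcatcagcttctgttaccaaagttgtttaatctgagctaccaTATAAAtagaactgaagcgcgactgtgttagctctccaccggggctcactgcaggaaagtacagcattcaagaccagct
Il6, chr5:30012864-30013163, + strand: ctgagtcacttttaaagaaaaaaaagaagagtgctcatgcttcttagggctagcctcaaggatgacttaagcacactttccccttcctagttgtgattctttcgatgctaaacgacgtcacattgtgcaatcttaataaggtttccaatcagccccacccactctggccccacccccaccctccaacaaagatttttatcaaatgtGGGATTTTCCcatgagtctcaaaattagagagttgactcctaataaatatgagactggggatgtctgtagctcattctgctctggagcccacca
The NF-kB-like letters occurred in 8 of the 78 promoters (10.3%), which belong to 7 genes, and in 1.63% of all 32851 promoters of the table. Among the 11 genes called lower with a promoter here, they were found for Il6, Il1rn, Il4ra and Il17rc. Among the 49 not called, they were found for Il16, Il9 and Il23r. The 2 Il1rn promoters overlap and hold the same match. None of the 4 promoters of Il17d, Il18 and Il33 held them, and 4 promoters are too few to compare with the other groups. TATAAA occurred in 14 of the 78 promoters (17.9%) and in 13.6% of all promoters. It was present at Il18, on the opposite strand (printed as TTTATA), and at both starts of Il33. The distance of a match from the start was not taken into account. These are matches of letters in a short window and not measured sites.

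Il17d is a member of the IL-17 family of cytokines. Its log2 ratio was 4.26 at the lowest, on C10-437, 4.71 at the median and 5.07 at the highest, on C10-434. The processed signal in Cy-5 ran from 9210 to 20500 with a median of 15300, and that of the same spots in Cy-3 from 274 to 810 with a median of 613. Every array thus showed the hemibrain channel far above the reference, with a median ratio of 26.1-fold, and the dim array was no exception. The other 5 ligands of this family with a probe were each detected in Cy-5 on fewer than all 10 arrays. Il17a was detected on no array in either dye, Il17b on 1 array and Il17c on 1 array in Cy-5, and Il17f on 7, with log2 ratios from -2.07 to -0.36. Il25, a ligand that drives type 2 responses, had a log2 ratio of 0.48 on C10-434, 1.07 at the median and 2.24 on C10-413, and was detected on 8 arrays in Cy-5 and on 1 in Cy-3.

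No receptor of the IL-17 family was called higher. Il17rc, a chain that pairs with Il17ra, was called lower, with log2 ratios of -2.94, -2.74 and -2.43 at the lowest, median and highest. Its other probe ran from -2.77 to -1.82, so both probes lay below -1 on every array. Il17ra, the shared chain of the family, ran from -0.82 to 0.20 with a median of -0.10, and Il17rd from -1.37 to -0.43. Another probe of Il17rd, detected in both dyes on all arrays, ran from -0.40 to 0.08. Il17rb, the receptor chain for Il25, was detected on no array in either dye, and Il17re, a receptor for Il17c, on 9 arrays in Cy-5, at -1.18 to 0.08.

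Il34 is a ligand of the receptor Csf1r, on which microglia depend. Its log2 ratio was 2.03 on C10-437, 2.58 at the median and 2.93 on C10-434, with Cy-5 signals of 10400 to 18000 and Cy-3 signals of 1360 to 3530. The channels did not overlap in signal over the 10 arrays. Csf1r had a log2 ratio of 0.07 at the lowest and 0.87 at the median, above 0 on every array, and was not called. Csf1, the other ligand of the same receptor, was called lower, with values of -2.57, -2.34 and -2.13. The 2 ligands of Csf1r thus lay on opposite sides of the reference on all 10 arrays. Of 7 microglial marker genes, 5 were called higher and all 7 were detected in Cy-5 on every array, with the median of the list at 2.65 to 3.76. The part of microglial content in these ratios was not tested.

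The IL-1 family held genes on both sides of the reference. Il18, a cytokine released after cleavage by Casp1, had a log2 ratio of 2.01 on C10-416, 2.34 at the median and 2.79 on C10-423. Its Cy-5 signals were 3030 to 9920 and its Cy-3 signals 594 to 1560, without overlap. Il33, a nuclear cytokine of barrier cells and glia that is released on damage, had a ratio of 1.13 on C10-416, 1.39 at the median and 1.56 on C10-423. The spread of Il33 over the 10 arrays, 0.43, was among the smaller ones here.

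Receptor chains of both cytokines, Il1rl1 and Il18rap, ran the other way. Il1rl1, the receptor of Il33, had log2 ratios of -5.58 on C10-413 and -5.09 at the median, and of -2.64 on C10-434, while the other 9 arrays stayed at -4.84 or below. A second probe of Il1rl1 ran from -4.72 to -3.81 and was detected in both dyes on all arrays. Its remaining probe was detected in Cy-3 on all 10 arrays and in Cy-5 on none, so that Cy-3 exceeded Cy-5 by at least 33.6-fold at the median of the arrays, by at least 8.42-fold on C10-434 and by at least 25.9-fold on each of the others. All 3 probes thus placed the hemibrain channel below the reference on every array. Il18rap, the accessory chain of the Il18 receptor, had ratios of -6.01, -5.13 and -3.42 and was detected in Cy-5 on 1 array. Il18r1, the chain that binds Il18, was detected on no array in either dye. Il18bp, a secreted protein that binds and blocks Il18, ran from 0.57 to 0.98 with a median of 0.78, above 0 on all 10 arrays without reaching the limit.

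Il1b, the inflammatory cytokine that signals through Il1r1, was called lower, with log2 ratios of -2.81 on C10-413, -2.19 at the median and -1.77 on C10-434. It was detected in Cy-3 on all 10 arrays and in Cy-5 on 1, so its hemibrain level was near the limit of what the array separates from background. Il1a was detected on 1 array in each dye. Il1rn, the natural antagonist of the Il1 receptor, was detected by its brightest probe in Cy-3 on all arrays and in Cy-5 on none. At this probe Cy-3 exceeded Cy-5 by at least 12.6-fold at the median of the arrays and by at least 3.22-fold on C10-434, with a lowest bound of 9.52-fold on the other arrays. The bounds hold for this probe alone: the other probe of Il1rn, detected on 1 array in each dye, ran from -1.15 to 0.45. Il1r1 was measured in both dyes on all arrays and was called lower, at -1.76, -1.52 and -1.26. Il1r2, the decoy receptor, was detected on 5 arrays in Cy-5 and on none in Cy-3, with ratios of -0.06 to 3.37. The Il36 genes and Il1f10 were near background: Il1f6, Il1f9, Il1f5 and Il1f10 were detected in Cy-5 on 1, 0, 3 and 0 arrays, and their receptor Il1rl2 on none.

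Probes of Il1rap, the accessory chain shared by the receptors for Il1 and Il33, differed in direction. The 4 probes were assigned to 3 transcript records of the gene, and which isoforms each of them detects was not worked out. A probe of a record of its own had log2 ratios of 1.85, 2.17 and 2.76 and was detected in Cy-5 on all 10 arrays. The brightest probe, which stands for the gene here, had ratios of -2.03, -0.91 and -0.52. Another, also alone on its record, ran from -1.65 to -0.93, and the last, on the same record as the brightest, was detected on no array in either dye. Of the 3 detected probes, 1 was thus above 0 and 2 were below 0 on all 10 arrays. Il1rapl2, a relative of Il1rap known from brain, was detected on 9 arrays in Cy-5 and on none in Cy-3, with a ratio of 0.39 on C10-434 and of 2.59 to 4.48 on the others. It was not called on 10 arrays and was called higher on the 9 without C10-434. Its relative Il1rapl1 was detected in Cy-5 on 6 arrays.

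**Figure D2:**
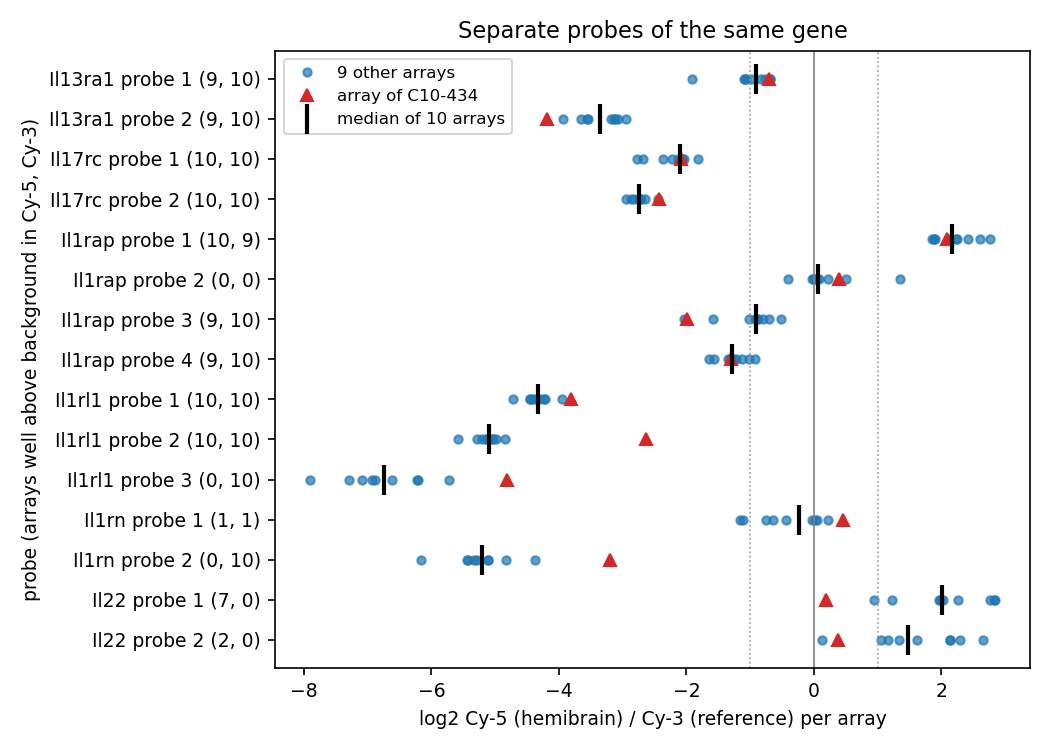
The log2 ratio of Cy-5 over Cy-3 on each of the 10 arrays (horizontal axis) for all probes of 6 genes with more than 1 probe, with the number of arrays detected in Cy-5 and in Cy-3 in parentheses. Symbols are as in the plot of the called genes. Il1rap has 1 probe at 1.85 to 2.76 and 2 below 0 on every array, while the 3 probes of Il1rl1 all lie below -2.

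Other genes whose probes differed included Il13ra1, Il1rn, Il17rd and Il6ra. The brightest probe of Il13ra1, a receptor chain for Il13 and Il4, had ratios of -4.19, -3.36 and -2.95, and its other probe ran from -1.91 to -0.68, so that the sign was shared and the size was not. The probes of Il1rn and Il17rd were described above, and those of Il6ra are given below. Il22, an epithelial cytokine, had ratios of 0.20 to 2.85 at its brighter probe with 7 arrays detected in Cy-5 and 0 in Cy-3, and a near-identical gene copy in the mouse could share its signal.

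Among the cytokines of gp130 (Il6st) and of the IL-12 family, Il6 was called lower, from a Cy-5 signal that was not detected, so its place among the genes called lower is not known. The computed ratio was -6.46 on C10-413, -5.54 at the median, -4.95 on C10-437 and -3.47 on C10-434. Il6 was detected in Cy-3 on all arrays and in Cy-5 on none, with Cy-5 signals of 11.3 to 37.6 and Cy-3 signals with a median of 848. Cy-3 exceeded Cy-5 by at least 15.9-fold at the median of the arrays, by at least 3.91-fold on C10-434 and by at least 12.6-fold on each of the others. These bounds set the reference signal against the dimmest detected signal on the same array, and carry any bias between the dyes, since no dye swap was made. Il11, a relative of Il6, was measured in both dyes on all arrays, with ratios of -3.01, -2.26 and -1.80. Il27 was also detected in both dyes on all arrays and lay near 0, from -0.17 to 0.23. Il12a, a subunit of Il12, was detected in Cy-5 on 9 arrays and ran from -0.19 to 0.63. Il23a, the matching subunit of Il23, was detected in Cy-3 on 6 arrays and in Cy-5 on 0, and Il31 in neither dye.

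The signal-transducing chain Il6st was detected in both dyes on every array and had its median near the lower limit without being called. Its ratio was -1.14 on C10-434, -1.03 at the median and -0.63 on C10-413. Il6ra, the chain that binds Il6, ran from -1.36 to 0.05 and was detected in Cy-5 on all arrays but 1. Its other probe had means of -1.11 and -0.91 on the 2 slides with 4 arrays, where the brightest had -0.34 and -0.32. Il11ra1, the receptor of Il11, had its median near the upper limit and was not called, at 0.48 on C10-413, 1.06 at the median and 1.54 on C10-434. Its second probe ran from 0.50 to 1.32, and the near-identical Il11ra2 could share this signal. Il27ra and Il12rb1, receptor chains for Il27 and for Il12 and Il23, were called lower, at medians of -1.86 and -2.63. Il12rb2 was detected in Cy-5 on 4 arrays, Il31ra on 9, at -0.52 to 0.19, and Il23r on no array in either dye.

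The receptors of the common gamma chain family act mainly on lymphocytes. The gamma chain itself, Il2rg, was called lower, with ratios of -3.94 on C10-434, -2.96 at the median and -2.41 on C10-425, and was detected in Cy-5 on 8 arrays. Il4ra, the receptor of Il4 and Il13, was measured in both dyes on all arrays, with ratios of -2.52, -1.90 and -1.56. Il15 was called lower at -2.47, -1.65 and -1.09. Il15ra, the chain that presents Il15, ran from 0.37 to 0.76 at its brightest probe, above 0 on all arrays. Its other probe, detected in Cy-5 on 9 arrays, ran from -0.15 on C10-434 to 0.67. Il21r was above 0 on all arrays, at 0.29 to 0.83. Il2, the growth factor of T cells, ran from -0.95 to 0.08 and its receptor chain Il2rb from -1.04 to -0.26, each with 9 arrays detected in Cy-5. Il4 and Il7 were detected in Cy-3 on 9 and 6 arrays and in Cy-5 on 0. Il13 was detected in Cy-5 on 7 arrays, Il9r on 3 and Il13ra2 on 1, while Il2ra, Il7r, Il21 and Il9 were detected in Cy-5 on no array. Of the 4 T cell and 3 B cell marker genes, 0 were called higher and 1 of each list was called lower. The list medians were -0.23 to 0.29 and -0.36 to 0.24, and the part of lymphocytes in the Cy-3 channel was not tested.

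Il10, the anti-inflammatory cytokine, was called lower, with ratios of -3.36 on C10-416, -2.46 at the median and -1.86 on C10-424, and was detected in Cy-5 on 6 arrays. Il10rb, the receptor chain it shares with Il22, was measured on all arrays at -1.80, -1.50 and -1.14. Il10ra, the chain that binds Il10, had ratios of 0.03 to 0.45 on 9 arrays and 1.02 on C10-415. Il20ra ran from -1.25 to -0.39 and Il20rb, which pairs with it, from -0.16 to 1.00. Il19, Il20 and Il24, ligands of these chains, were detected in Cy-5 on 1, 0 and 9 arrays. Of the chains for Il22, Il22ra1 was detected in Cy-5 on 8 arrays, at -0.65 to 0.30, and the secreted decoy Il22ra2 on 0. Of the remaining genes, Il16, a ligand made by lymphocytes, ran from -1.08 to -0.66, and Il3ra, the binding chain for Il3, from -1.37 to -0.77. Il3, Il5 and Il5ra were detected in Cy-5 on 0, 1 and 0 arrays. Il4i1, an amino acid oxidase rather than a cytokine, ran from -0.99 to -0.40, and Il1bos, an RNA antisense to Il1b, was detected in neither dye.

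Many of the 80 genes were at or near background in hemibrain. In Cy-5, 23 (28.8%) were detected on all 10 arrays, 35 on some and 22 (27.5%) on none, against 65.6% of all 18539 genes on all 10 arrays and 9.78% on none. Without C10-434 the count was 35 (43.8%), against 76.6% of all genes. In Cy-3, 42 (52.5%) were detected on all arrays, against 73.2% of all genes, and 14 of the 80 (17.5%) were detected in neither dye on any array, against 6.58% of all genes. Il34, Il16, Il3, Il5, Il3ra and Il5ra were left out of the following counts by role. Of the 33 ligand genes, 5 were detected in Cy-5 on all arrays and 12 on none. Of the 39 receptor, accessory and binding protein genes, 15 were detected on all arrays and 7 on none. A probe that was not detected has an unknown low level. The number of arrays limits the precision, and for dim probes so does the signal over background.

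**Figure D3:**
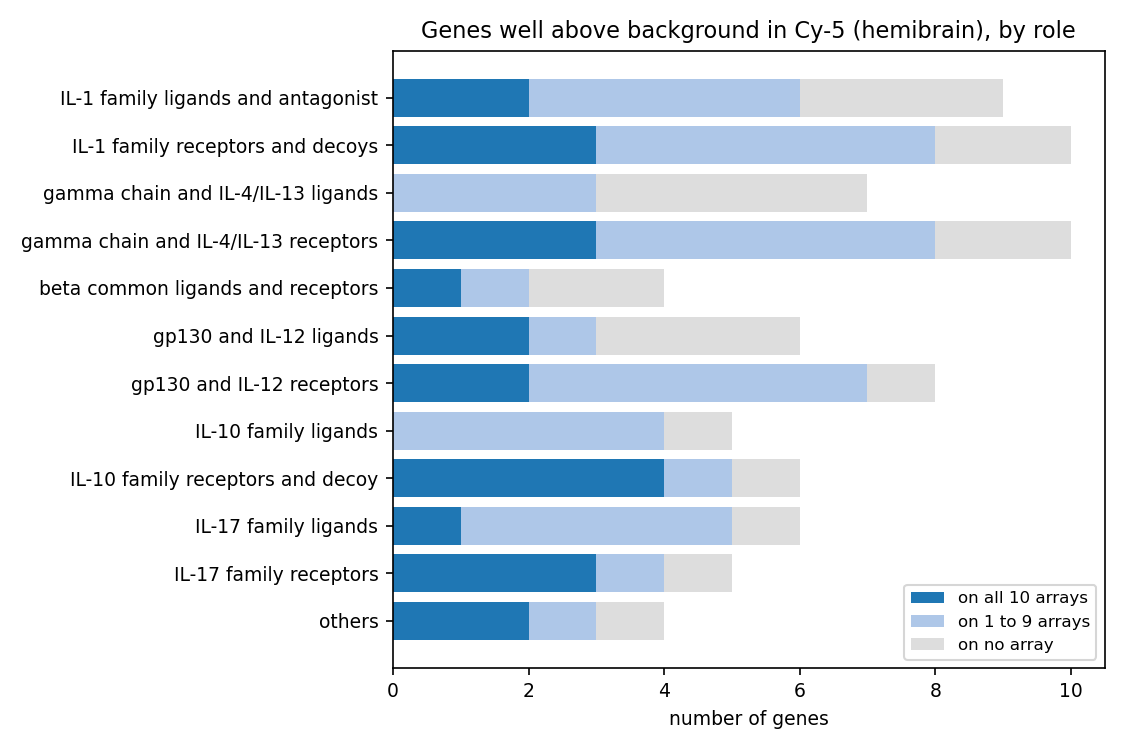
The number of genes (horizontal axis) in each role group that were detected in Cy-5 on all 10 arrays (dark), on 1 to 9 arrays (light) and on no array (grey). None of the ligands of the gamma chain and IL-10 families was detected on all 10 arrays, while 4 of the 6 IL-10 family receptor and decoy genes were.

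The signaling partners of these receptors were described with a list of their own. Of a list of 38 adaptors, kinases, transcription factors, inhibitors and partner cytokines or receptors, 37 had a probe, and 31 of these were detected in Cy-5 on all arrays, as were 65.6% of all genes. Of the 37, 2 were called higher, 21 lower and 14 were not called, where 14.5% of all genes were called higher and 15.9% lower. The 2 called higher were receptors that pair with gp130: Cntfr, which binds ciliary neurotrophic factor, at 2.75, 3.23 and 4.12, and Lifr, at 1.51, 2.74 and 3.30. Osmr, another partner of gp130, was called lower, at -4.41, -4.16 and -3.88, so that these partners lay on opposite sides of the reference on every array.

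Within the Jak and Stat families, Jak3, the kinase bound to the gamma chain, was called lower at a median of -2.89, as was Jak1 at -1.44, while Jak2 (-0.67) and Tyk2 (-0.51) were not called. Stat6, which acts below Il4ra, had a median of -2.60 and Stat3, below gp130, of -1.82. Stat5a and Stat5b, closely similar genes next to each other, had medians of -1.99 and 0.52, and Stat5b was above 0 on all arrays. On the IL-1 side, Myd88 was called lower at -1.76 and Sigirr, an inhibitory receptor, at -2.26. Tollip, an inhibitor of the same signal, ran from 0.92 to 1.26, and Casp1, which cleaves Il1b and Il18, was called lower at a median of -2.41. Traf3ip2, the adaptor of the IL-17 receptors, was called lower at a median of -3.82.

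**Figure D4:**
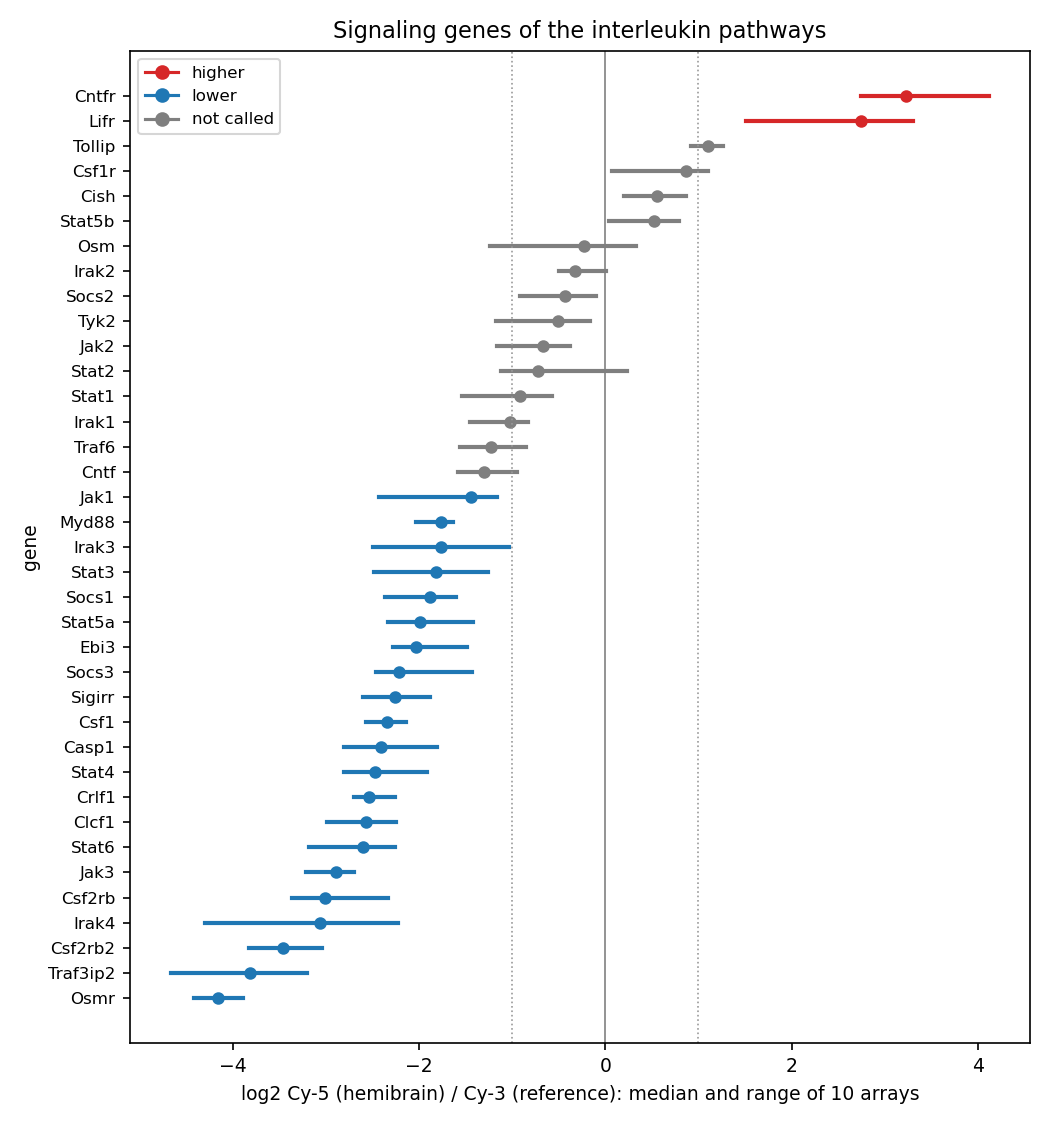
The median (point) and the range (line) over the 10 arrays of the log2 ratio of Cy-5 over Cy-3 (horizontal axis) for the 37 signaling genes, colored by call, with dotted lines at -1 and 1. Cntfr and Lifr stand at the top and Osmr at the bottom.

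The spread between arrays, each of 1 mouse, was close to that of other genes. For the 23 genes detected in both dyes on all arrays, the range of the log2 ratio over the arrays had a median of 0.78, against 0.79 for the 10533 genes of the array that met the same condition, and 11 of the 23 lay above that value. The widest ranges were those of Il1rl1 (2.94, and 0.74 without C10-434), Il11 (1.21), Il20rb (1.16), Il11ra1 (1.06) and Il17ra (1.01). The narrowest was that of Il15ra (0.40), whose other probe had a range of 0.82.

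There were 4 slides, 2 of them with 4 arrays and 2 with a single array, and slide is the batch that the file headers give. The comparison of these 2 slides asks how far the ratios moved with slide. Diet, animal and labelling cannot be told apart from it. The second slide (C10-424, C10-425, C10-434 and C10-435) and the first (C10-415, C10-416, C10-417 and C10-423) differed at 0 of the 105 probes of these genes at an adjusted p under 0.05 in limma, against 0.0744% of all 40299 probes. At an unadjusted p under 0.05 there were 17 of the 105 (16.2%), against 10.0% of all probes, and the 4 values of one slide did not overlap those of the other at 10 of the 105 (9.52%), against 5.65%. Of the 17 probes, 12 were higher and 5 lower on the second slide, and 5 were detected in Cy-5 on none of the 8 arrays. With only the probes detected in Cy-5 on all 8 arrays, 2 of 30 (6.67%) had an unadjusted p under 0.05, against 5.56% of all 19482 such probes, close to the background. The smallest adjusted p in limma, 0.0899, belonged to the dim probe of Il1rn, which was detected on 1 of the 8 arrays in each dye.

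The study lists 6 of the genes between its diets, namely Il1b, Il10, Il11, Il19, Il25 and Il27ra. The study chose this list for differences among arrays of this series, so neither its directions nor its count between slides is independent evidence. The diet of each array is not known here. Of the 6, 5 were among the 17 probes at an unadjusted p under 0.05 between slides in limma. Among the other 99 probes of these genes 12 were, and among all probes 10.0% passed this limit. None of the 6 had an adjusted p under 0.05 in limma.

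Il10 had log2 ratios of -2.50, -3.36, -3.12 and -2.93 on the 4 arrays of the first slide. Those of the second lay from -2.17 to -1.86. The slides did not overlap, and the second was higher by 0.98 with a standard error of 0.20 (limma, adjusted p = 0.122). Il27ra was higher on the second slide by 0.87 with a standard error of 0.21, also without overlap (limma, adjusted p = 0.164). Il11 was higher by 0.84 with a standard error of 0.22 and overlapped between slides (limma, adjusted p = 0.193).

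For Il19 the second slide was higher by 0.91 with a standard error of 0.39 (limma, adjusted p = 0.484), and the probe was detected in Cy-5 on 1 of the 8 arrays. Il25 was lower by 0.52 on the second slide, from a mean of 1.35 to a mean of 0.83 (limma, adjusted p = 0.441). Il1b moved by 0.24 (limma, adjusted p = 0.877). Of the 6 genes, Il11 alone was detected in both dyes on all 8 arrays.

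**Figure D5:**
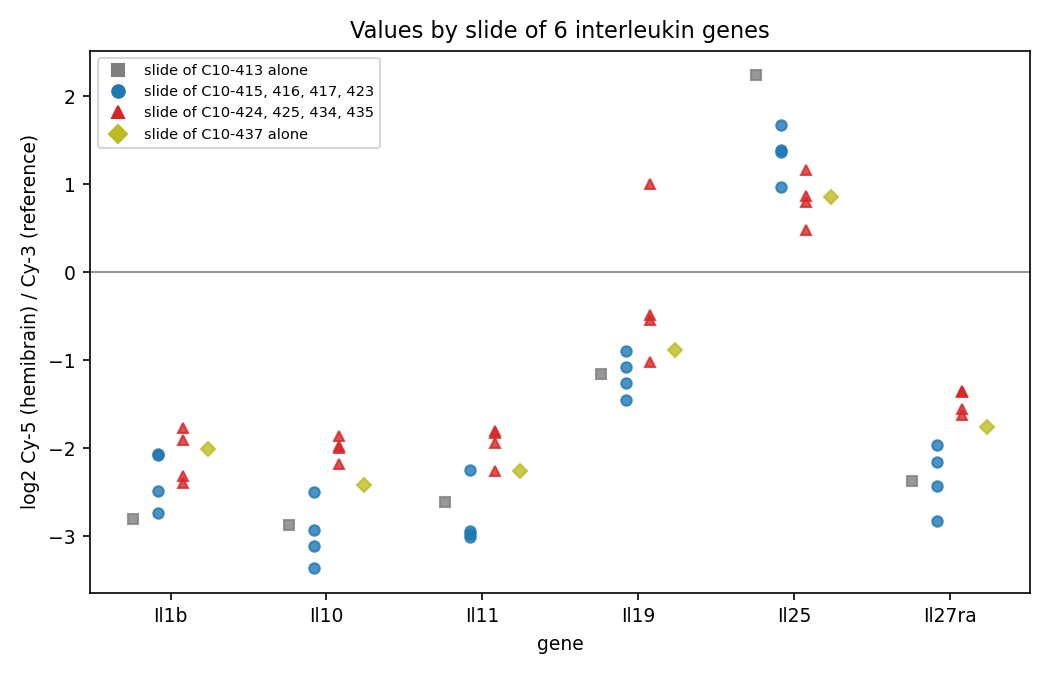
The log2 ratio of Cy-5 over Cy-3 (vertical axis) on each array for the 6 genes that the study lists, with a symbol and color for each of the 4 slides. Il10 and Il27ra do not overlap between the 2 slides of 4 arrays, and Il25 has its highest value, 2.24, on the slide of C10-413 alone.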

How the data were processed

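RNA of hemibrain (Cy-5) and of the comparison sample (Cy-3) was hybridized to 10 dual dye Agilent arrays. The authors scanned the slides and deposited the Feature Extraction output (version 10.10.1.1), in which signals are intensities on a linear scale and the log ratio is a log10 of Cy-5 over Cy-3. The deposited processed signals are already background-subtracted and dye-normalized (linear and lowess), so no second loess was applied. The deposited series table held log2 ratios equal to log2 processed Cy-5/Cy-3 within 0.001 for 100.0% of probes on every array, with column medians of -0.0512 to 0.1018, so its direction, scale and lack of further centring are known. Spots flagged as outliers were set aside, control spots left out and spots of a probe averaged. Probes well above background on an array had that flag on at least 0.5 of their spots.

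Of 41174 probes, 27198 matched a gene through a RefSeq table (GRCm38.p6, used for names only). The gene is represented by its brightest probe. Slides were compared with limma 3.58.1 (R 4.3.3) over 40299 probes with Benjamini-Hochberg adjustment, and the script was tested on simulated data. Other steps used Python 3.11.15, numpy 2.4.6 and pandas 2.3.3. All 10 samples stayed without a diet group. Each array is 1 mouse. Bounds used each channel of the processed signals after Aquantile normalization, with no further loess.

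The genes named are those called higher or lower, the families described, the 6 genes listed by the study and the 5 with the widest range. Il1rapl2, Il22 and the separate probes were singled out after their values were seen. The members and lists were chosen with earlier results of these data known. Alternatives were loess (span 0.3), median centring, background-subtracted median signals floored at 0.5 with an offset of 50 and loess, the deposited table, the mean over probes, a fold of 1.5, another detection flag, and leaving out arrays.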

Additional observations from a re-analysis of the deposited data

Results flagged for a closer look

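Of the 80 genes, 11 had 1 array far from the other 9 by Dixon's criterion for the gap to the nearest value at the 95% level, where chance flags about 1 in 20, or 4 of 80. That is 13.8%, against 10.5% of all 17659 genes. Of the 11, 6 (7.5%) stood out on C10-434, against 5.12% of all genes. The Cy-5 channel of that array was dim, with a median background-subtracted signal of 28.5 against 60.0 to 171 elsewhere, and its part in these values was not tested. On C10-434 the log2 ratio of Il1rl1 was -2.64 (others -5.58 to -4.84), of Il6 -3.47 (others -6.46 to -4.95) and of Il7 -0.29 (others -3.05 to -1.73). The ratio of Il1rapl2 there was 0.39 (others 2.59 to 4.48), of Il6ra -1.36 (others -0.60 to 0.05) and of Il19 1.00 (others -1.46 to -0.49). A second probe of Il1rl1 was at -3.81 on C10-434, also its highest value.

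Elsewhere, Il10ra, a gene detected in both dyes on every array, was at 1.02 on C10-415 (others 0.03 to 0.45). The remaining 4 genes were near background in both dyes. Il17a was at 2.54 on C10-417 (others -0.35 to 0.82), Il1f6 at 2.06 on C10-437 (others -0.68 to 0.59), Il3 at -1.90 on C10-416 (others -0.70 to 0.34) and Il1bos, an RNA antisense to Il1b, at -1.08 on C10-415 (others -0.02 to 0.49).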

How the results depend on the processing

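The 4 genes called higher remained under every alternative run, and without C10-434 Il1rapl2 made 5. The count called lower was 8 of 80 with floored signals, offset and loess, where Il10, Il10rb, Il11, Il15, Il1b, Il1r1, Il27ra and Il2rg were lost. It was 15 to 19 elsewhere, and the 19 came with a fold of 1.5. Over all 17659 genes, 1841 were called lower with floored signals, 2801 in the main setting and 3780 with a fold of 1.5. The median ratios of 22 genes, the 20 called with Il19 and Il25, were recomputed, and 0 reversed. The other genes were not. Floored signals, offset and loess moved 15 of the 22, at most by 3.49: Il1rn from -5.20 to -1.71, Il6 from -5.54 to -2.11, Il18rap from -5.13 to -2.13, Il13ra1 from -3.36 to -1.82, Il10 from -2.46 to -0.94, Il1b from -2.19 to -0.70, Il2rg from -2.96 to -1.53 and Il15 from -1.65 to -0.62. The mean over probes moved 3, Il13ra1 to -2.15, Il1rn to -2.78 and Il17rc to -2.41. Genes detected on all arrays in Cy-5 numbered 38 by the positive and significant flag and 35 without C10-434. Between slides, 0 of the genes' probes passed in limma under every setting, leave-one-out included. At an unadjusted p under 0.05 there were 11 (floored signals) to 17 of 105, and 2 of 30 with dim probes left out. The shares of all probes at this p were 5.85% with floored signals, 10.0% in the main setting and 5.56% with dim probes left out. Over all probes the 30 calls fell to 2 without C10-415, to 18 without C10-423, and to 0 without C10-416, C10-417, C10-424, C10-425, C10-434 or C10-435, were 1 with floored signals and 68 of 19482 with dim probes left out. No paired analysis was possible because no sample could be assigned to a group. Signal over background limits the hemibrain level of Il6, Il1rn, Il1b and Il18rap.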
